A study of Homo sapiens with 4 samples.

Results

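Aldehyde dehydrogenases are a family of enzymes, and 10 members were followed here in A549, a cell line of epithelial origin established from a human lung carcinoma, on 4 Affymetrix arrays. They were ALDH1A1, ALDH1A3, ALDH1L2, ALDH2, ALDH3A1, ALDH3A2, ALDH3B1, ALDH7A1, ALDH9A1 and ALDH18A1, taken from 22465 genes with exactly 1 gene symbol in the platform annotation. Each of the 10 had 1 row of its own. All cells had been transduced with a pLKO.1 lentivirus. It carried the control (shCtl, given as scrambled in the series design but as a vector control in the labels) or a short hairpin RNA against INSL4 (shINSL4, 1 hairpin, named A in the titles). Each group had 2 independently set up cultures, with 1 array each. Whether they go back to separate transductions is not stated in those texts. The spread behind each p-value is therefore that between cultures, pooled in part over all genes. With 1 hairpin, loss of INSL4 and other effects of that hairpin cannot be told apart.

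Most enzymes of the family use NAD or NADP to oxidise an aldehyde to a carboxylic acid, which removes reactive aldehydes made from alcohols, lipids, amino acids and vitamin A. ALDH1A enzymes make retinoic acid from retinal, ALDH2 is the main mitochondrial enzyme for acetaldehyde, and ALDH3 enzymes act on longer aldehydes that come from lipids. ALDH activity is widely used as a marker of stem-like cells in lung carcinoma, and A549 is known for high ALDH1A1 and ALDH3A1.

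Values are log2 RMA levels, so a difference of 1 is a doubling. Levels of different genes are not comparable as amounts of RNA, because each gene has its own probes. Arrays of cell cultures also cannot tell fewer cells of a type apart from less RNA per cell. INSL4, a relaxin-like peptide hormone gene and the target of the hairpin, fell from 9.03 and 8.92 in shCtl to 7.26 and 7.22 in shINSL4, a log2 fold change of -1.73 (SE 0.0684, adjusted p = 0.000142, limma with Benjamini-Hochberg adjustment over all genes). The epithelial keratin gene KRT18 had a mean log2 level of 12.73 in shCtl and 12.19 in shINSL4. By level, the 4 endothelial markers lay at percentiles 11.4 (PECAM1) to 40.3 (VWF) of the tested genes. Of the 4 leukocyte markers PTPRC lay at percentile 5.20, CD3E at 28.9 and CD14 at 40.7. CD68, a lysosomal gene used as a macrophage marker, lay at 95.7 and was lower in shINSL4, by a log2 fold change of -0.81 (adjusted p = 0.000574, limma with Benjamini-Hochberg adjustment); its part was not tested either. Of 5 epithelial markers 4 were lower in shINSL4, and their mean log2 level was 9.82 to 9.84 on the shCtl arrays and 9.51 to 9.53 on the shINSL4 arrays; its part in the results below was not tested. EPCAM and KRT19, also epithelial markers, lay at percentiles 45.3 and 46.1, and KRT19 had a log2 fold change of 0.12. Of 5 alveolar type II markers only ABCA3 (percentile 75.5) lay above the median level. It was lower in shINSL4, by -0.28 (adjusted p = 0.0272, limma with Benjamini-Hochberg adjustment). Of 5 fibroblast markers only COL1A1 (percentile 65.4) lay above the median level. DCN, at percentile 7.53, was higher by 0.30 (adjusted p = 0.0233 by the same test). Over all genes tested the log2 fold change had a median of 0.08, and 15466 of them lay above 0; after cyclic loess normalization that median was 0.0092.

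Setting shINSL4 against shCtl asked which of these enzymes change when INSL4 is knocked down. ALDH18A1 and ALDH9A1 rose, and the other 8 members did not pass an adjusted p of 0.05 in either direction. Of all tested genes 6.41% were called higher and 9.42% lower by the same rule, 15.8% in all, so 2 of 10 higher stands beside a background of 6.41%. No member was called lower, and at an unadjusted p under 0.05 limma gave 3 members higher and 0 lower. By that unadjusted rule 4663 of all 22465 genes were higher and 3045 lower. The median log2 fold change of the members was -0.0086, against 0.08 over all genes, and 3 of 10 members lay above that overall median. The arrays of the groups did not overlap for 5 members, 3 higher and 2 lower, beside 48.0% of all genes higher and 20.8% lower, 68.9% in all.

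**Figure D1:**
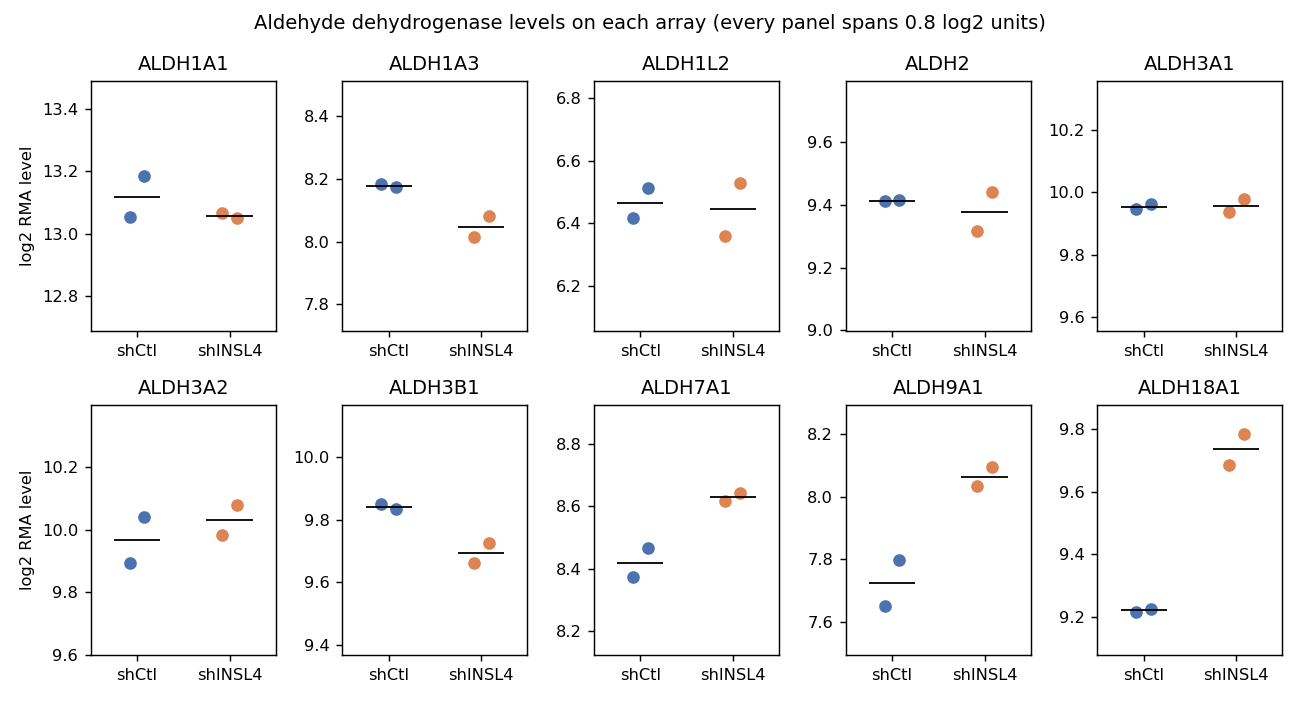
Log2 RMA level of each of the 10 aldehyde dehydrogenases on the 2 shCtl and 2 shINSL4 arrays (points) with the group mean (line); every panel spans the same log2 range but starts at a different level. The groups do not overlap for ALDH7A1, ALDH9A1 and ALDH18A1, which are higher in shINSL4, or for ALDH1A3 and ALDH3B1, which are lower.

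ALDH18A1 had the largest change of the 10. It encodes delta-1-pyrroline-5-carboxylate synthase, the mitochondrial enzyme that turns glutamate into the precursor of proline and ornithine. Unlike most of its family it makes an aldehyde by reduction. Its log2 level was 9.22 and 9.23 in shCtl and 9.69 and 9.78 in shINSL4. Both shINSL4 arrays lay above both shCtl arrays, by far more than the spread within a group. The mean rose from 9.22 ± 0.00712 to 9.73 ± 0.0704 (SD, n = 2 each), a 1.43-fold increase. The log2 fold change was 0.51 (SE 0.0659, 95% interval 0.36 to 0.67, adjusted p = 0.00357, limma with Benjamini-Hochberg adjustment). It lay at percentile 99.2 of the fold changes of all genes.

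ALDH9A1 was the other member that rose. It oxidises trimethylaminobutyraldehyde on the way to carnitine, and also gamma-aminobutyraldehyde and betaine aldehyde. Its log2 level was 7.65 and 7.80 in shCtl and 8.04 and 8.09 in shINSL4, with no overlap. The mean went from 7.72 ± 0.103 to 8.06 ± 0.0420 (SD, n = 2 each), a 1.27-fold increase with a log2 fold change of 0.34 (SE 0.0738, 95% interval 0.16 to 0.52, adjusted p = 0.0250, limma with Benjamini-Hochberg adjustment). The call depends on the scaling and on 1 array. With arrays centred on their medians the log2 fold change was 0.29 and the adjusted p 0.0640, and without shINSL4 replicate 2 they were 0.31 and 0.118.

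The promoters of these members are shown because they are the ones whose transcripts rose. The sequences are RefSeq's for GRCh38.p14, from 250 bases before to 50 bases after the annotated start, both genes being on the minus strand. The ALDH18A1 window is chr10:95656662-95656961 and the ALDH9A1 window is chr1:165698513-165698812. Both read 5′ to 3′ along the gene. Capitals mark the GC box, GGGCGG, found on either strand; in ALDH9A1 both copies lie on the opposite strand and so read CCGCCC.
ALDH18A1: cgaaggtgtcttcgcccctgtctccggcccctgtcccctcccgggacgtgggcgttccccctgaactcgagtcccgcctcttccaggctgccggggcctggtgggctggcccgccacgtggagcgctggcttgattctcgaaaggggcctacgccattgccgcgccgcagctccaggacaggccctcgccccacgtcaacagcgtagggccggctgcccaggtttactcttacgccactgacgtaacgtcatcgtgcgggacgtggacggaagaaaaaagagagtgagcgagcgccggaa
ALDH9A1: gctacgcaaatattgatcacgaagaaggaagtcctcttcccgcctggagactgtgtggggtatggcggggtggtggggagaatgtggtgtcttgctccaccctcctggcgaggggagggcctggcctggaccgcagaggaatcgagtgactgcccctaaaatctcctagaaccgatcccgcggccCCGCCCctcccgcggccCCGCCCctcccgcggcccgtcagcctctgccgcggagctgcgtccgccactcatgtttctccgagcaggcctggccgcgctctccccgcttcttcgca
The ALDH9A1 window holds 2 GC boxes, whose first printed bases lie 65 and 48 bases before the start, and the ALDH18A1 window holds none. In G and C content the windows are alike, at 67.0% for ALDH18A1 and 66.7% for ALDH9A1, against a median of 58.7% over all promoter windows. Of the 10 members 7 were found in the promoter table, with 9 windows; ALDH1L2, ALDH2 and ALDH3A1 were not matched. The GC box stood in 5 of these 9 windows and in 45.0% of all 35116 windows; 2 of its 6 copies in the ALDH1A3 window overlap. Of the 9 windows 0 held the core antioxidant response element (TGACNNNGC, in 13.3% of all windows), the cAMP response element (TGACGTCA, 1.85%) or the TATA box (TATAAA, 11.5%), on either strand. A match is a string of letters, not a bound site. Only these exact letters were searched, so elements that differ from them by a letter were not counted.

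ALDH7A1 stood just outside the threshold. It oxidises the semialdehyde formed in lysine breakdown, and betaine aldehyde. Its log2 level was 8.37 and 8.47 in shCtl and 8.62 and 8.64 in shINSL4, again with no overlap between the groups. The log2 fold change was 0.21 (SE 0.0656, 95% interval 0.054 to 0.37), a ratio of 1.16, and limma gave it an adjusted p of 0.0764. It passed after quantile normalization (adjusted p = 0.0298), with an intensity trend and robust estimation (0.0300) and with the dimmest 40% of genes left out (0.0269). It did not pass with centred arrays (log2 fold change 0.16, adjusted p = 0.180), after cyclic loess (0.0750) or in any fit that left out 1 array (0.0631 to 0.385).

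The retinal-oxidising members did not pass. ALDH1A1 was near the top of the array's range, at percentile 99.97 of all genes by level, where a probe set can be close to saturation; whether it was is unknown from these values. Its log2 level was 13.05 and 13.19 in shCtl and 13.07 and 13.05 in shINSL4, and the groups overlapped. The log2 fold change was -0.061 (SE 0.0700, 95% interval -0.23 to 0.11, adjusted p = 0.533, limma with Benjamini-Hochberg adjustment). ALDH1A3, the other retinal dehydrogenase among the members, read 8.18 and 8.17 in shCtl and 8.01 and 8.08 in shINSL4. Its shINSL4 arrays were both lower than its shCtl arrays. The log2 fold change of ALDH1A3 was -0.13 (SE 0.0627, 95% interval -0.28 to 0.019) and its adjusted p 0.183 (limma with Benjamini-Hochberg adjustment).

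ALDH3B1, a membrane-anchored enzyme for lipid-derived aldehydes, showed the same order of arrays. It read 9.85 and 9.83 in shCtl and 9.66 and 9.73 in shINSL4, so the groups did not overlap. The log2 fold change was -0.15 (SE 0.0625, 95% interval -0.30 to 0.0028, adjusted p = 0.151, limma with Benjamini-Hochberg adjustment). ALDH3A2, the microsomal fatty aldehyde dehydrogenase, read 9.89 and 10.04 in shCtl and 9.98 and 10.08 in shINSL4. Those arrays overlapped, and its log2 fold change was 0.065 (SE 0.0769, 95% interval -0.12 to 0.25, adjusted p = 0.549 by the same test). ALDH3A1, a cytosolic enzyme best known from the cornea and from carcinoma cells, read 9.95 and 9.96 in shCtl and 9.94 and 9.98 in shINSL4. It had the smallest difference of the 10, at 0.0039 (SE 0.0611, 95% interval -0.14 to 0.15, adjusted p = 0.967, limma with Benjamini-Hochberg adjustment).

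The remaining members are mitochondrial. ALDH2 read 9.41 and 9.42 in shCtl and 9.32 and 9.44 in shINSL4, so its shINSL4 arrays lay on either side of the shCtl arrays. Its log2 fold change was -0.036 (SE 0.0688, 95% interval -0.20 to 0.13, adjusted p = 0.713, limma with Benjamini-Hochberg adjustment). ALDH1L2, the mitochondrial formyltetrahydrofolate dehydrogenase, read 6.42 and 6.51 in shCtl and 6.36 and 6.53 in shINSL4. It was the only member below the median level of all genes, at percentile 38.8, and its arrays overlapped. The log2 fold change was -0.021 (SE 0.0800, 95% interval -0.21 to 0.17, adjusted p = 0.855, limma with Benjamini-Hochberg adjustment). For ALDH1A1, ALDH1A3, ALDH1L2, ALDH2, ALDH3A1, ALDH3A2 and ALDH3B1 the main fit's intervals leave out log2 changes in array level beyond 0.30 in either direction. If ALDH1A1 is saturated or ALDH1L2 near background, its interval does not bound the change in RNA.

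**Figure D2:**
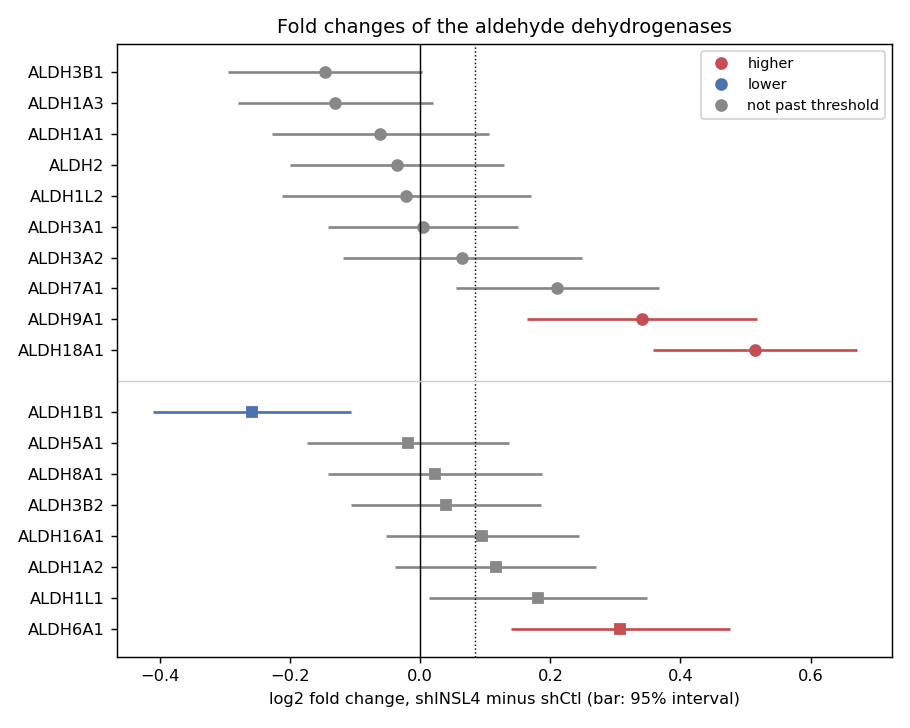
Log2 fold change (shINSL4 minus shCtl) with its 95% interval for the 10 members (circles, above the grey line) and the 8 other measured aldehyde dehydrogenases (squares); the solid line is 0 and the dotted line the median of all genes, 0.08. ALDH18A1 and ALDH9A1 (higher), ALDH6A1 (higher) and ALDH1B1 (lower) passed an adjusted p of 0.05.

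Among the 8 other measured genes of the family 1 rose and 1 fell, beside 6.41% and 9.42% of all genes. Their log2 fold changes had a median of 0.068. ALDH6A1, the mitochondrial methylmalonate semialdehyde dehydrogenase of valine breakdown, read 6.74 and 6.84 in shCtl and 7.05 and 7.14 in shINSL4. Its log2 fold change was 0.31 (SE 0.0704, adjusted p = 0.0303, limma with Benjamini-Hochberg adjustment). ALDH1B1, a mitochondrial relative of ALDH2, read 8.72 and 8.79 in shCtl and 8.48 and 8.51 in shINSL4. It fell by 0.26 on the log2 scale (SE 0.0637, adjusted p = 0.0384, limma with Benjamini-Hochberg adjustment). Neither call was firm. That of ALDH6A1 was lost with arrays centred on their medians (adjusted p = 0.0760), after cyclic loess (0.124) or quantile (0.0675) normalization, and when shCtl replicate 1 (0.0547) or either shINSL4 array (0.0659 without replicate 1, 0.209 without replicate 2) was left out. That of ALDH1B1 was lost after quantile normalization (0.0579) and without shINSL4 replicate 1 (0.288), shINSL4 replicate 2 (0.190) or shCtl replicate 2 (0.0893).

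The other 6 of these genes did not pass. The cytosolic folate enzyme ALDH1L1 had a log2 fold change of 0.18 and the retinal dehydrogenase ALDH1A2 one of 0.12. Those of ALDH16A1, ALDH3B2 and ALDH8A1 were 0.096, 0.040 and 0.022. ALDH5A1, which oxidises succinate semialdehyde from GABA, had a log2 fold change of -0.019. Close copies such as ALDH3B1 and ALDH3B2 may share signal on the array, which was not tested.

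Genes of the pathways around these enzymes were then read from the same fit. Each list's count of genes that rose or fell stands beside 6.41% of all genes called higher and 9.42% lower. In the retinoid pathway 1 of 22 measured genes rose and 4 fell, with a median log2 fold change of 0.0089. RDH10, which oxidises retinol to the retinal that ALDH1A enzymes use, read 8.94 and 9.04 in shCtl and 7.53 and 7.46 in shINSL4. RDH10 fell by 1.49 on the log2 scale (SE 0.0684, adjusted p = 0.000154, limma with Benjamini-Hochberg adjustment), a far larger change than that of any aldehyde dehydrogenase measured. TGM2, a transglutaminase gene known to respond to retinoic acid, fell by 0.93 (SE 0.0640), from 8.84 and 8.83 to 7.86 and 7.94. On the same list CYP26A1, RARB, RARRES1 and PLAAT4, named after their values were seen, did not pass. Their log2 fold changes were 0.19, -0.12, -0.033 and 0.015. DHRS3, which reduces retinal back to retinol, fell by 0.41. The retinol dehydrogenase gene DHRS9, at a dim level (percentile 13.4), fell by 0.40. The retinal reductase gene RDH11 had a log2 fold change of 0.27, and it was named after its value was seen. The call of DHRS9 was lost without shINSL4 replicate 1 (adjusted p = 0.107) or shCtl replicate 2 (0.0635). That of RDH11 was lost with centred arrays (0.117) and when shCtl replicate 1 (0.0727) or either shINSL4 array (0.140 without replicate 1, 0.286 without replicate 2) was left out.

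In the proline and ornithine pathway, to which ALDH18A1 belongs, 1 of 14 genes rose and 2 fell, with a median of 0.057. OAT, the aminotransferase that interconverts ornithine and the semialdehyde made by ALDH18A1, read 8.20 and 8.30 in shCtl and 7.59 and 7.61 in shINSL4. It fell by 0.65 on the log2 scale (SE 0.0653, adjusted p = 0.00141, limma with Benjamini-Hochberg adjustment), opposite in sign to ALDH18A1. ASS1, the argininosuccinate synthase, fell by 0.34, a call lost without shINSL4 replicate 1 (adjusted p = 0.179). ODC1, the ornithine decarboxylase, rose by 0.28. That call was lost with centred arrays (adjusted p = 0.0507) and without shINSL4 replicate 1 (0.162), shINSL4 replicate 2 (0.210) or shCtl replicate 2 (0.0523). PYCR1, the reductase that completes proline after ALDH18A1, was named outside the rule, and its log2 fold change was -0.066 (95% interval -0.22 to 0.085, adjusted p = 0.458, limma with Benjamini-Hochberg adjustment).

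In the lysine, choline and carnitine pathways, where ALDH7A1 and ALDH9A1 act, 1 of 14 genes rose and 2 fell, with a median of 0.085. The choline kinase gene CHKA fell by 0.54 and CPT1A, which loads fatty acids onto carnitine, by 0.49 on the log2 scale. AASS, which starts lysine breakdown upstream of ALDH7A1, had a log2 fold change of 0.29 at a dim level (percentile 9.37). Its call was lost after quantile (adjusted p = 0.0862) or cyclic loess (0.0911) normalization and without shINSL4 replicate 1 (0.128) or shINSL4 replicate 2 (0.189).

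In the fatty aldehyde pathway, which feeds ALDH3A2, 1 of 12 genes rose and 2 fell, with a median of -0.015. SGPL1, the sphingosine phosphate lyase whose product hexadecenal is oxidised by ALDH3A2, read 8.84 and 8.95 in shCtl and 7.51 and 7.61 in shINSL4. It fell by 1.33 on the log2 scale (SE 0.0726, adjusted p = 0.000201, limma with Benjamini-Hochberg adjustment). ELOVL5, a fatty acid elongase, fell by 0.34, a call lost without shINSL4 replicate 1 (adjusted p = 0.126). The peroxisomal import receptor gene PEX7 had a log2 fold change of 0.24, and its call was lost in each of the 4 fits that left out 1 array (adjusted p 0.0613 to 0.350) and with quantile (0.0961), median (0.104) or cyclic loess (0.173) scaling.

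In the folate pathway, which ALDH1L2 drains of formyl groups, 4 of 18 genes were higher and 2 lower at an unadjusted limma p under 0.05. Of all 22465 genes 4663 were higher and 3045 lower by that rule. In limma with Benjamini-Hochberg adjustment 0 of the 18 folate genes rose and 2 fell. The count of higher genes moved with the fit. It was 4 after quantile normalization or with the dimmest 40% of genes left out, and 3 with the intensity trend. With the replicate number as a block it was 2, after cyclic loess 1 and with centred arrays 0. The list's median was 0.095. SLC25A32, the mitochondrial folate carrier, fell by 0.59 (SE 0.0680) on the log2 scale and MTHFD1, the trifunctional cytosolic enzyme, by 0.42 (SE 0.0662). Among alcohol dehydrogenases and other aldehyde-handling enzymes 1 of 14 rose and 2 fell, with a median of 0.047. AOX1, an aldehyde oxidase at a dim level (percentile 25.1), fell by 0.54 on the log2 scale. ESD, which acts in formaldehyde removal, fell by 0.32, a call lost after quantile normalization (adjusted p = 0.0567) and without shINSL4 replicate 1 (0.263) or shCtl replicate 2 (0.128). ADHFE1, an iron-activated enzyme that oxidises gamma-hydroxybutyrate, had a log2 fold change of 0.34 at a dim level (percentile 33.4). Its call was lost without shINSL4 replicate 1 or shINSL4 replicate 2.

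Targets of NRF2, the antioxidant transcription factor to which ALDH1A1 and ALDH3A1 have been linked, moved in both directions. Of 17 measured targets 6 rose and 3 fell, beside 6.41% and 9.42% of all genes, and their log2 fold changes had a median of 0.11. The glutathione synthesis gene GCLM read 9.41 and 9.56 in shCtl and 10.02 and 10.05 in shINSL4 and rose by 0.55 (SE 0.0719, adjusted p = 0.00392, limma with Benjamini-Hochberg adjustment). ABCC2, a conjugate exporter, rose by 0.48 and the heme oxygenase gene HMOX1 by 0.42 on the log2 scale. TXNRD1, the thioredoxin reductase gene, fell by 0.44 (SE 0.0622). With centred arrays 4 targets were higher and 4 lower. The calls lost there were those of GCLC (adjusted p = 0.0907) and ME1 (0.0513), both named after their values were seen. GCLC also lost its call in each fit that left out 1 array (0.0580 to 0.385), and ME1 without shINSL4 replicate 1 (0.0566) or replicate 2 (0.0888).

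**Figure D3:**
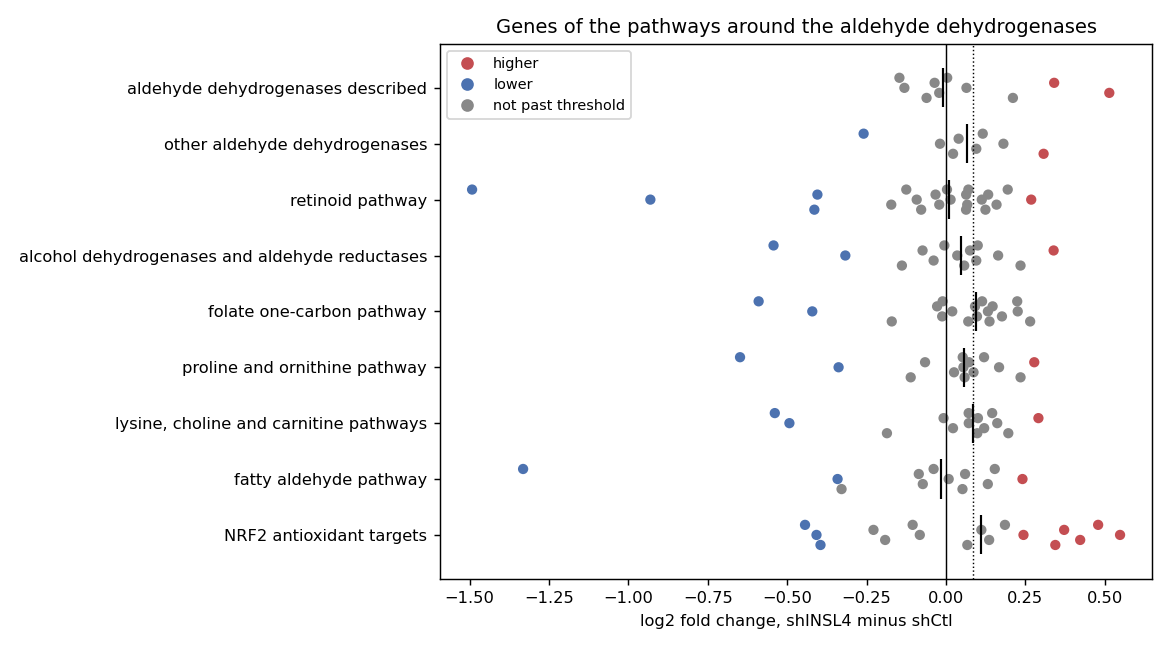
Log2 fold change (shINSL4 minus shCtl) of each measured gene in the 10 members, the other aldehyde dehydrogenases and 7 pathway lists; short black lines are list medians, the solid line is 0 and the dotted line the median of all genes, 0.08. RDH10 at -1.49 and SGPL1 at -1.33 lie farthest to the left, while all aldehyde dehydrogenases lie between -0.26 and 0.51.

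The genes whose values over the 4 arrays were most like those of a member were found by the Euclidean distance between gene-centred log2 values, over 18958 named genes. For ALDH18A1 these were the fatty acid elongase gene ELOVL2 (distance 0.0325) and the F-box gene FBXW8 (0.0434). ALDH9A1 was closest to the ciliary gene BBS4 (0.00632) and the receptor gene LRP12 (0.0103). Nearest to ALDH7A1 were the glycosyltransferase gene GALNT13 (0.0115) and the splicing gene SYF2 (0.0135). With 4 arrays in 2 groups many genes lie almost as close, so these names are a description only.

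**Figure D4:**
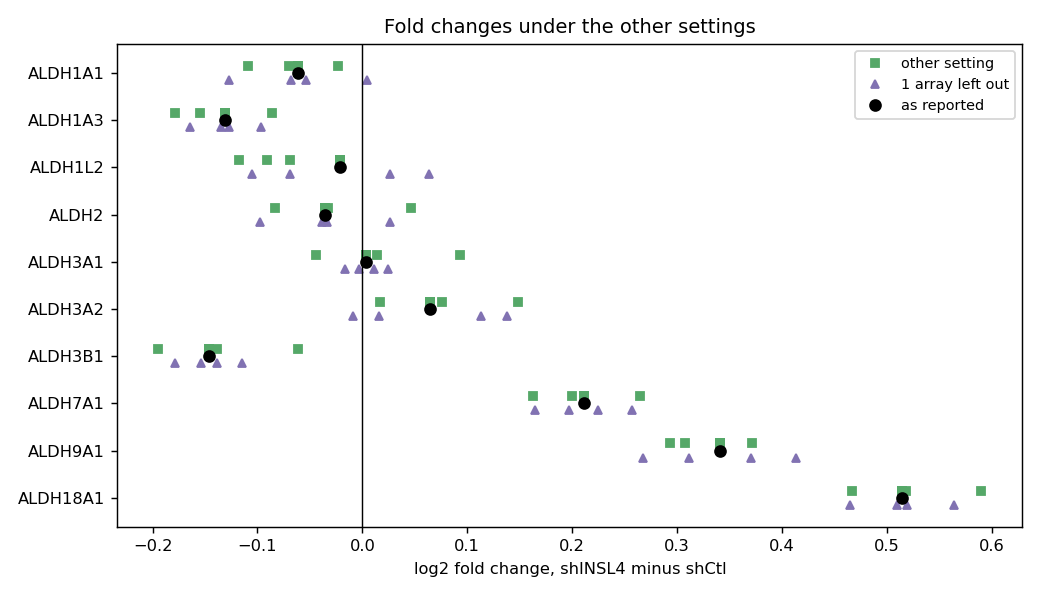
Log2 fold change (shINSL4 minus shCtl) of each member as reported (black), under other settings with all arrays (squares) and with 1 array left out (triangles). ALDH7A1, ALDH9A1 and ALDH18A1 stay above 0 and ALDH1A3 and ALDH3B1 below 0 under every setting tried, while ALDH1A1, ALDH1L2, ALDH2, ALDH3A1 and ALDH3A2 cross 0.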

How the data were processed

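Gene expression was measured in 4 cultures, 2 per group, grouped by the sample titles. TRIzol and column purification gave the total RNA, and single-stranded cDNA was biotin-labelled, per the labels' protocols. Each deposited value is a log2 level, judged from the range of values. Per the submitters' processing notes the authors used RMA and Affymetrix Expression Console; neither a version nor a genome build is given in the sources used here. Of 67528 transcript clusters 23781 had 1 symbol, 1543 had several and 42204 had no symbol in the platform annotation. The highest-mean row of each symbol was kept, and no dim gene was left out.

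The fit used limma 3.58.1 in R 4.3.3 (group term, eBayes, two-sided) over all 22465 genes, with Benjamini-Hochberg adjustment and a threshold of 0.05. An array has no read depth; the 2 arrays per group limit the precision (median SE 0.0693, 2 residual and 4.68 prior degrees of freedom). Errors are SDs over arrays or limma's SEs. The pipeline was tested on simulated data.

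The members and the lists were chosen with earlier results of these data known. From textbook knowledge 8 lists of 135 symbols were written, of which 119 matched a tested gene. Named were all members, INSL4, the other family genes, up to 4 called genes per list with the smallest p, and the nearest patterns. Alternatives were a replicate block, a variance trend, a level filter, 3 scalings, 2 ways to treat several rows per gene, other thresholds, and leaving out each array.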

Additional observations from a re-analysis of the deposited data

How the results depend on the processing

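Leaving out an array leaves 1 in its group, which is then assumed to vary like the other group. ALDH18A1 kept its call under 13 of 14 alternatives (log2 fold change 0.46 to 0.59) and ALDH9A1 under 11 of 14 (0.27 to 0.41); the exception for ALDH18A1, and 1 of the 3 for ALDH9A1, was an added fold of 1.5, which left 0 members higher, 111 genes higher and 671 lower. Centring each array on its median left 1 member higher, and leaving out arrays 1 to 2. Members called lower stayed at 0 under all 14. With all genes, 1440 were higher and 2117 lower; the higher count was 2223 with the dimmest 40% left out, 808 (25.6% of calls) with centred arrays, 904 (27.5%) after cyclic loess and 2955 (52.7%) at an adjusted p under 0.1. Leaving out arrays gave 808 to 2999 higher and 1403 to 2430 lower genes. The extremes were 2999 higher without shCtl replicate 1, 808 higher without shINSL4 replicate 2, and 1403 lower without shINSL4 replicate 1. The causes were not tested. The deposited values hold no detection call, so how far dim genes such as ALDH1L2 stand above background is unknown.

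The replicate numbers are shared between groups, but the labels name no shared batch. The titles also carry the codes WA1 (shCtl) and WA2 (shINSL4) for replicate 1 and WB1 (shCtl) and WB2 (shINSL4) for replicate 2. What the shared letters stand for is not stated, and the main fit did not pair the arrays. Deviations of same-numbered arrays correlated at 0.232 over genes. With the replicate number as a block, 2996 genes were higher (53.5% of calls), and 3 members, the third being ALDH7A1 (adjusted p = 0.0438).

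Signs of uncalled genes turned as follows. With quantile normalization the log2 fold change was 0.046 for ALDH2 and -0.074 for ALDH8A1. With centred arrays it was -0.044 for ALDH3A1, -0.0080 for ALDH3B2 and -0.026 for ALDH8A1, and after cyclic loess -0.014 for ALDH3B2 and -0.086 for ALDH8A1. With single arrays left out the log2 fold change ran from -0.13 to 0.0046 for ALDH1A1 (above 0 without shCtl replicate 2), from -0.11 to 0.063 for ALDH1L2 (above 0 without shCtl replicate 2 or shINSL4 replicate 1), and from -0.098 to 0.026 for ALDH2 (above 0 without shINSL4 replicate 1). It ran from -0.017 to 0.024 for ALDH3A1 (below 0 without shCtl replicate 1 or shINSL4 replicate 2), from -0.0091 to 0.14 for ALDH3A2 (below 0 without shCtl replicate 1), from -0.065 to 0.027 for ALDH5A1 (above 0 without shINSL4 replicate 1), and from -0.022 to 0.067 for ALDH8A1 (below 0 without shCtl replicate 2 or shINSL4 replicate 2). Besides the members, 35 genes among INSL4, the lists and the nearest patterns were called, and 15 of them lost the call under at least 1 alternative other than the added fold.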

Other observations

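The nearest tested protein-coding genes on either side of the members with the largest changes were read from the GRCh38.p14 gene table, which is used here only for gene order. Beside ALDH9A1 lies TMCO1, a calcium channel gene of the endoplasmic reticulum, which fell by 0.71 on the log2 scale (SE 0.0621, adjusted p = 0.000854, limma with Benjamini-Hochberg adjustment), opposite in sign to ALDH9A1. On the other side MGST3, a microsomal glutathione transferase, had a log2 fold change of 0.080 (SE 0.0847). The neighbours of ALDH18A1 did not pass: the log2 fold change was -0.11 (SE 0.0605) for PDLIM1 and 0.021 (SE 0.0767) for TCTN3. Next to ALDH7A1, GRAMD2B was higher by 0.23 (SE 0.0600, adjusted p = 0.0449, limma with Benjamini-Hochberg adjustment) and PHAX differed by -0.0059 (SE 0.0723). These genes were chosen for their position, after the members' values were seen, and their calls were not checked under the alternatives.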
